A study of Mus musculus with 8 samples.

Results

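The genes described here make the proton pump and the bicarbonate, chloride and ammonia carriers of kidney intercalated cells. They are 10 genes given by symbol: the pump subunit genes Atp6v1b1, Atp6v0a4, Atp6v0d2, Atp6v1g3 and Atp6v1c2, the exchanger genes Slc4a1, Slc26a4 and Slc4a9, the transcription factor gene Foxi1 and the ammonia channel gene Rhcg. Each matched 1 gene of the 21759 in the deposited table, and all 10 had enough counts to be tested. They were measured by bulk RNA sequencing in kidneys of 8 male mice aged 8 months, all knock-in animals of a model of MUC1 kidney disease, so control mice carry the disease allele too. The vehicle group held 4 mice given saline daily for 7 days, and the BRD4780 group held 4 mice given that small molecule at 50 mg/kg daily for 7 days, a treatment that the sample titles call AGN50. RNA came from a slice of whole kidney, so all kidney cell types are mixed. The sources used here do not give the strain, the knock-in construct or the acid-base status of the mice, and p-values measure the spread between these 8 animals.

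Intercalated cells are scattered through the connecting tubule and collecting duct and adjust the acid content of urine. In type A cells a vacuolar proton pump on the luminal side secretes acid, while the exchanger AE1, the product of Slc4a1, returns bicarbonate to the blood. Type B cells work in the opposite sense. Pendrin, the product of Slc26a4, secretes bicarbonate in exchange for luminal chloride, and AE4, the product of Slc4a9, sits on the blood side. The transcription factor FOXI1 is needed for both types to form. The pump has a cytosolic sector that splits ATP (V1) and a membrane sector that conducts protons (V0), and several of its subunits exist as a widely expressed form and a form enriched in acid-secreting epithelia.

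Vehicle libraries totalled 16.6 to 28.5 M (mega) counts and BRD4780 libraries 5.74 to 28.2 M, with replicate 4 the shallowest. Levels are in CPM, a gene's counts per M counts of its library after TMM scaling, which adjusts library totals for differences in composition. The lowest count of any of the 10 genes was 179, for Foxi1 in that library, so none was near the detection floor. BRD4780 replicate 3 stood apart: of 13474 genes tested over 8 libraries 394 passed an adjusted p of 0.05, and of 13558 tested without that library 3184 did. Calls of the 10 genes and counts of called genes in each marker list are therefore given with and without it where they differ. Replicate numbers follow the order of deposition and pair no mice.

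In kidneys of treated mice the message of the type A exchanger was lower and that of both type B exchangers higher, while the pump genes showed no common direction. Slc4a1 stood at 0.656 of its vehicle level, Slc26a4 at 1.43-fold and Slc4a9 at 1.75-fold. None of these differences passed the threshold over all genes. By edgeR's quasi-likelihood test 0 of the 10 genes had an adjusted p under 0.05, against 2.92% of all genes tested, of which 2.30% were higher and 0.623% lower. At an unadjusted p under 0.05 there were 4 of 10, against 24.6% of all genes. The groups did not overlap in 2 of 10, against 12.6% of all genes. The median log2 fold change of the 10 was 0.0049, beside a median of 0.0097 over all genes tested.

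**Figure D1:**
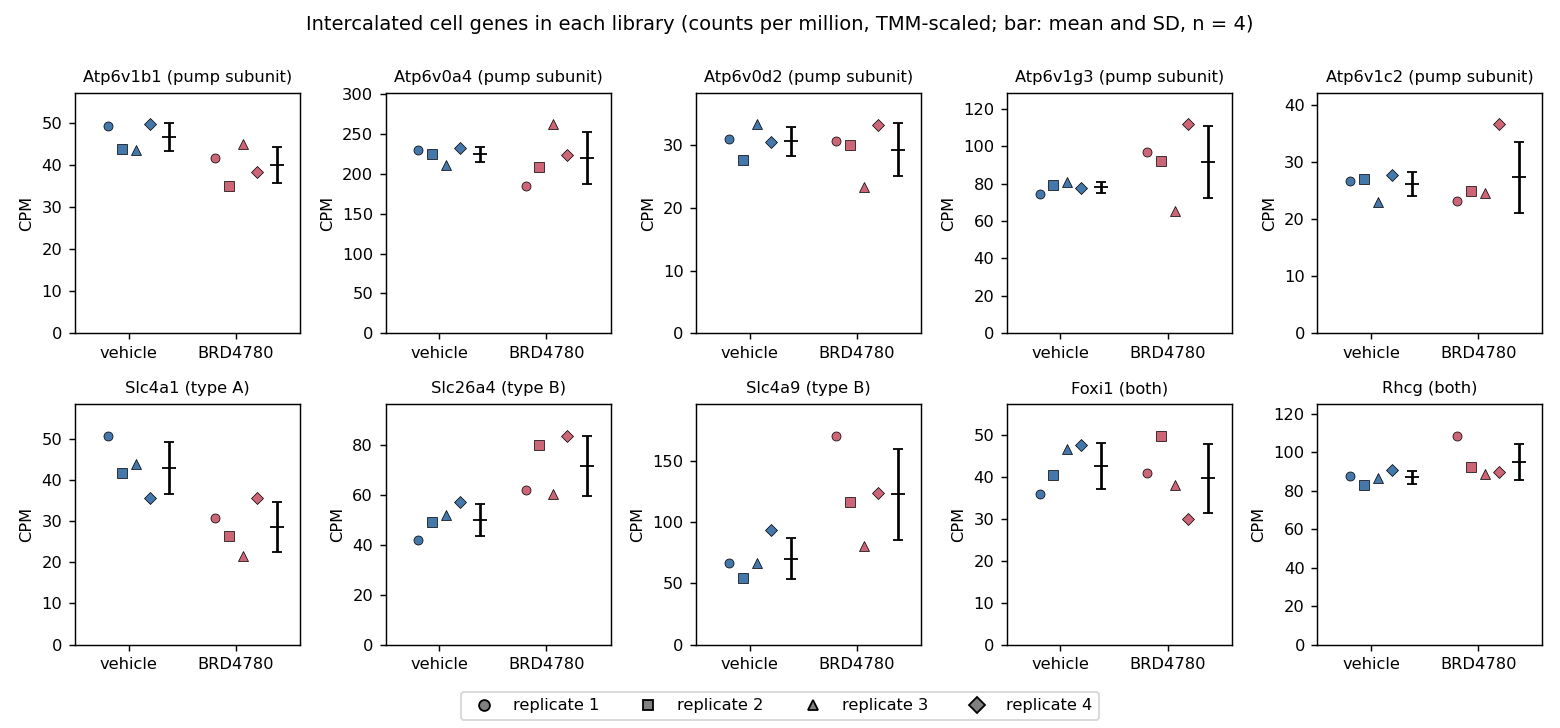
Level of each gene in CPM (vertical axes from 0) in every library, by treatment, with symbols for replicates and bars for the mean and SD (n = 4 per group). The 4 BRD4780 libraries lie above all vehicle libraries in Slc26a4 and below them in Slc4a1, where the nearest pair almost touches at 35.5 CPM.

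Slc4a1 (chromosome 11, 102348824 to 102366203, minus strand, GRCm38) was measured at 50.8, 41.5, 43.8 and 35.5 CPM in vehicle replicates 1 to 4. In BRD4780 replicates 1 to 4 it was at 30.8, 26.3, 21.5 and 35.5 CPM. Every treated library lay below every vehicle library, but vehicle replicate 4 and BRD4780 replicate 4 were 0.0143 CPM apart, and the groups overlapped when CPM was scaled to plain library totals, a scaling tried after the data were seen. The means were 42.9 ± 6.3 and 28.5 ± 6.0 CPM (SD, n = 4 per group), and the log2 fold change was -0.61 ± 0.15 (SE, edgeR adjusted p = 0.0621). Among 13474 genes its unadjusted p of 0.00256 ranked 554th.

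Slc26a4 (chromosome 12, 31519827 to 31559969, minus strand) went the other way. Vehicle libraries held 41.9, 49.4, 51.9 and 57.1 CPM of this pendrin message, and treated libraries 61.9, 80.2, 60.5 and 84.0 CPM. The lowest treated library was 3.45 CPM above the highest vehicle library, and the groups stayed apart under TMM, plain totals and DESeq2 scaling. The means were 50.1 ± 6.3 and 71.7 ± 12.2 CPM (SD, n = 4 per group), a log2 fold change of 0.51 ± 0.13 (SE, edgeR adjusted p = 0.0641).

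Slc4a9, the other type B exchanger gene (chromosome 18, 36528147 to 36556273, plus strand), had the largest fold change of the 10 and the widest spread. It was at 66.3, 54.3, 66.7 and 93.3 CPM with vehicle and at 170.4, 116.4, 80.1 and 123.8 CPM with BRD4780. Treated replicates 1, 2 and 4 exceeded all vehicle libraries, whereas replicate 3 lay below vehicle replicate 4. The means were 70.1 ± 16.5 and 122.7 ± 37.1 CPM (SD, n = 4 per group), with a log2 fold change of 0.81 ± 0.22 (SE, edgeR adjusted p = 0.0732).

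Whether the 3 exchanger genes were called depended on the test and on 1 library. The DESeq2 Wald test called Slc4a1, Slc26a4 and Slc4a9 (adjusted p = 0.00629, 0.0122 and 0.00794) and no other of the 10, against 10.3% of all genes by that test. Without BRD4780 replicate 3, edgeR called 5 of 10, against 23.5% of all genes, namely these 3 (adjusted p = 0.0245, 0.00935 and 0.00467) with Atp6v1b1 and Atp6v1g3. In that fit the log2 fold changes were -0.50 for Slc4a1, 0.58 for Slc26a4 and 0.97 for Slc4a9. Replicate 3 was the lowest treated library in all 3 exchanger genes, so leaving it out brought Slc4a1 nearer to the vehicle level and took the others farther from it. Leaving out any other single library gave adjusted p-values above the threshold for all 10 genes. Other settings took the 3 exchanger genes farther from the threshold. With a block for the number in the sample titles the edgeR adjusted p was 0.193 for Slc4a1, 0.191 for Slc26a4 and 0.164 for Slc4a9. The log2 fold changes were then -0.43, 0.41 and 0.98. Exact permutation of log2 CPM, whose unadjusted p cannot fall below 0.0286 here, gave adjusted p = 0.227, 0.227 and 0.261.

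The direct comparison of type A with type B was the ratio of Slc4a1 to Slc26a4 counts within each library, which does not depend on library scaling and is not divided by gene length. There were 1.21, 0.841, 0.845 and 0.622 counts of Slc4a1 per count of Slc26a4 in vehicle replicates 1 to 4, and 0.497, 0.328, 0.355 and 0.423 in BRD4780 replicates 1 to 4. All treated libraries lay below all vehicle libraries, with vehicle replicate 4 the nearest. On the log2 scale, with 0.5 counts added to each gene, the mean was -0.23 ± 0.39 with vehicle and -1.34 ± 0.27 with BRD4780 (SD, n = 4 per group). The log2 difference was -1.11, a ratio 2.16-fold lower with treatment. An exact two-sided permutation test over 70 arrangements gave p = 0.0286, the smallest that 4 against 4 libraries can give, and an adjusted p of 0.129 over the 9 ratios computed. Without BRD4780 replicate 2 or replicate 3 the unadjusted exact permutation p was 0.0571.

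Slc4a1 relative to Slc4a9 gave the same picture, at 0.766, 0.765, 0.658 and 0.381 with vehicle and 0.181, 0.226, 0.268 and 0.287 with BRD4780 (log2 difference -1.39, exact permutation p = 0.0286, adjusted p = 0.129 over 9 ratios). Aqp6, which encodes a water channel of intracellular vesicles in type A cells, was used as a second type A gene. Its ratio to Slc26a4 ranged from 0.669 to 1.21 with vehicle and from 0.525 to 0.727 with BRD4780 (log2 difference -0.71, exact permutation p = 0.0571, adjusted p = 0.171). Its ratio to Slc4a9 ranged from 0.409 to 1.08 and from 0.264 to 0.431 (log2 difference -0.98, exact permutation p = 0.0857, adjusted p = 0.193). Both Aqp6 ratios overlapped between groups because of vehicle replicate 4. In whole-kidney RNA, fewer cells of a type and less message per cell cannot be told apart. The same genes enter several of these ratios, which are therefore not independent.

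**Figure D2:**
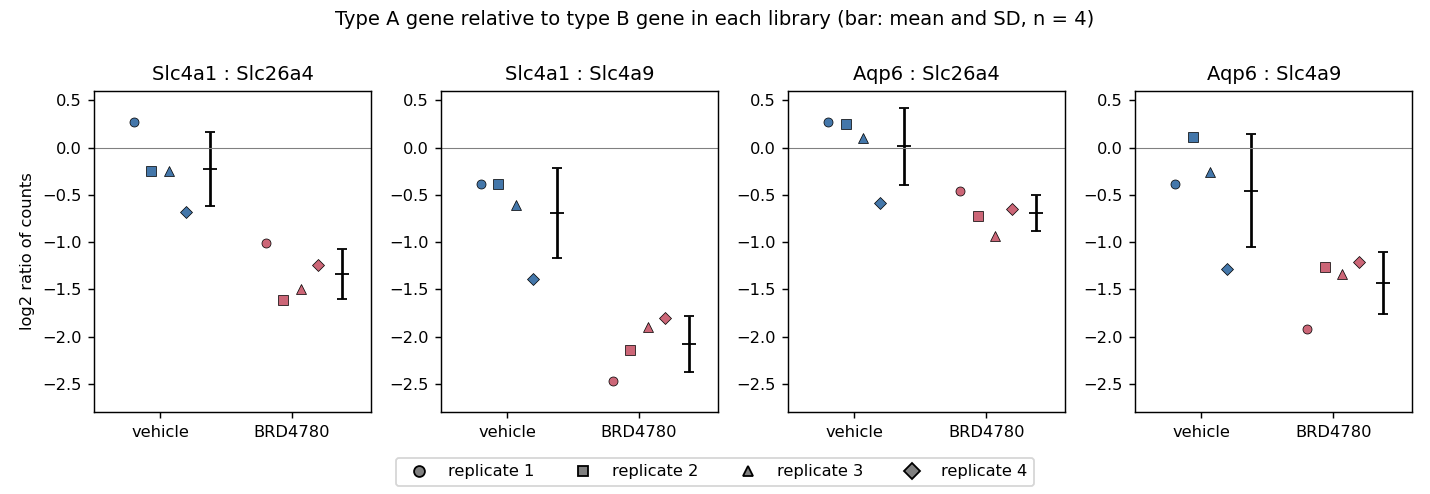
Log2 ratio of counts of a type A gene to a type B gene in each library (vertical axes, shared scale), by treatment, with bars for the mean and SD (n = 4 per group). Ratios of Slc4a1 to either type B gene separate the groups, and ratios of Aqp6 do not because vehicle replicate 4 lies among the treated libraries.

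Slc4a1 is also the gene of band 3, the main membrane protein of red cells, and gene-level counts do not separate the kidney from the red cell transcript. Of 14 red cell genes listed, 10 were in the table and 5 could be tested. None was called, 4 had negative and 1 a positive log2 fold change, and the median was -1.38. Without BRD4780 replicate 3 edgeR called 2 of the 5, Alas2 and Hba-a1, both lower, against 23.5% of all genes. The alpha-globin gene Hba-a1 was at 1120.5 ± 458.9 CPM in vehicle and 429 ± 261 CPM in treated kidneys (SD, n = 4 per group; edgeR adjusted p = 0.118). The heme synthesis gene Alas2 was at 21.7 ± 11.9 and 5.93 ± 4.15 CPM (SD, n = 4 per group; edgeR adjusted p = 0.0958), and Hba-a2 at 62.8 ± 28.4 and 23.8 ± 12.2 CPM (SD, n = 4 per group; edgeR adjusted p = 0.0998).

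The summed level of the red cell genes was 1450, 479, 1320 and 1580 CPM in vehicle replicates 1 to 4 and 569, 155, 783 and 334 CPM in BRD4780 replicates 1 to 4. Hba-a1 made up most of the sum, at 1338 of 1450 CPM in vehicle replicate 1. Slc4a1 ranged from 35.5 to 50.8 CPM in the vehicle group and from 21.5 to 35.5 CPM in the treated group. Both measures thus ran lower with treatment, although the summed levels overlapped between groups. The order of libraries by Slc4a1 matched that by the summed level in part. Vehicle replicates 1, 3 and 2 fell in the same order on both. Their summed levels were 1450, 1320 and 479 CPM, with 50.8, 43.8 and 41.5 CPM of Slc4a1. Vehicle replicate 4 had the highest summed level and the lowest vehicle value of Slc4a1. Vehicle replicate 1 went the other way, with the next highest summed level and the highest Slc4a1 of all libraries. Within the treated group, replicate 3 had the highest summed level and the lowest Slc4a1. BRD4780 replicate 2 had the lowest summed level of all libraries, at 155 CPM. It held 26.3 CPM of Slc4a1, with only BRD4780 replicate 3 lower. Rhag and Tspo2 had 0 counts in all libraries, and Gata1 had 1. How far red cell RNA contributes to the difference in Slc4a1 was not tested.

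**Figure D3:**
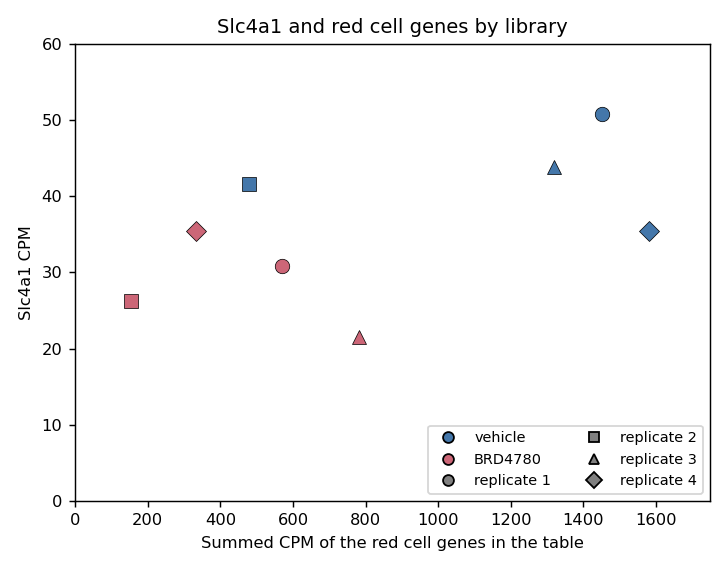
Slc4a1 (vertical axis, CPM) against the summed CPM of the red cell genes in the table (horizontal axis), 1 point per library with color for treatment and symbol for replicate. Vehicle replicates 1, 3 and 2 fall in the same order on both axes. BRD4780 replicate 2 is lowest in red cell genes and next to lowest in Slc4a1. Vehicle replicate 2, at 479 CPM of red cell genes, has more Slc4a1 than any treated library. Vehicle replicates 1 and 4, both at high red cell levels (1450 and 1580 CPM), have the most and the least Slc4a1 of the vehicle group.

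Other markers of the types were read from lists chosen with earlier results of these data known. All 6 type A genes, Slc4a1 among them, had negative log2 fold changes with a median of -0.29, or -0.20 over the 5 other than Slc4a1, and none was called. Without BRD4780 replicate 3 the median of the 6 was -0.15 and Slc4a1 was the 1 gene called, against 23.5% of all genes. Besides Slc4a1 the smallest p-values were those of Slc26a7, a chloride and bicarbonate exchanger gene, with a log2 fold change of -1.08 ± 0.45 (SE, edgeR adjusted p = 0.18), and of Aqp6 with -0.20 ± 0.17 (SE, edgeR adjusted p = 0.49). Slc26a7 was between 0.300 and 1.40 CPM, and in the treated group its highest library was replicate 4, the shallowest.

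Among type B genes 5 of 6 could be tested, and the 3 that are not exchangers had values near 0. Insrr, the gene of an insulin receptor-related kinase, had a log2 fold change of 0.04 ± 0.15 (SE, edgeR adjusted p = 0.90). Spink8 was at 0.02 ± 0.15 and Hmx2, a homeobox gene, at 0.01 ± 0.22 (log2 fold change ± SE). The means of Insrr were 28.0 ± 5.4 and 28.6 ± 3.7 CPM (SD, n = 4 per group). The list median was 0.04, with all 5 values positive and 0 called, and 0.02 over the 3 tested genes other than the exchangers. The list median was 0.15 without BRD4780 replicate 3, and the exchangers were the 2 genes called, against 23.5% of all genes.

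**Figure D4:**
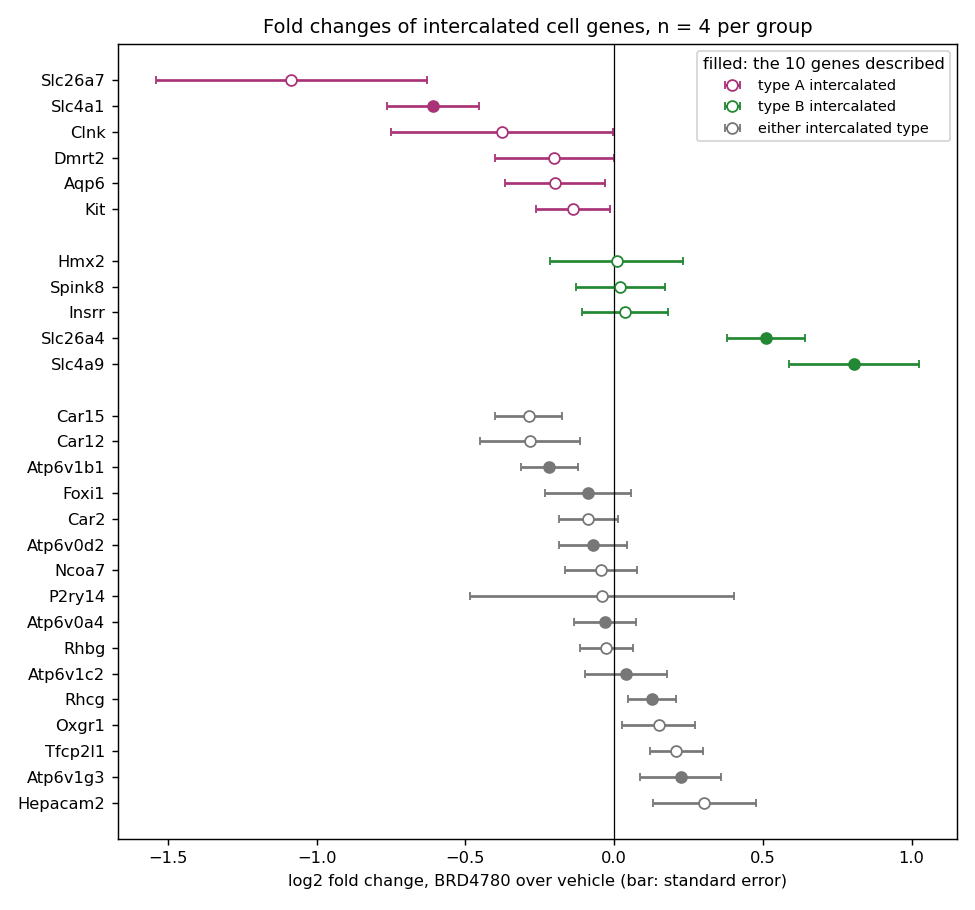
Log2 fold changes (BRD4780 over vehicle, horizontal axis) with standard errors for tested genes of type A, type B and either type of intercalated cell, with filled symbols for the 10 genes described. Type A genes lie left of 0, the type B exchanger genes Slc26a4 and Slc4a9 lie at 0.51 and 0.81, and the other type B genes lie within 0.04 of 0.

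The 5 pump subunit genes split into 3 with lower and 2 with higher means in treated kidneys, none past the threshold over 8 libraries. Atp6v1b1 (chromosome 6, 83742990 to 83758855, plus strand) encodes the B1 subunit of the cytosolic sector, whose loss in people causes distal renal tubular acidosis with deafness. It was at 49.4, 43.8, 43.7 and 49.7 CPM with vehicle and at 41.7, 35.1, 45.1 and 38.3 CPM with BRD4780. Treated replicates 1, 2 and 4 lay below all vehicle libraries and replicate 3 among them. The log2 fold change was -0.22 ± 0.09 (SE, edgeR adjusted p = 0.19), and -0.28 with an adjusted p of 0.0470 without BRD4780 replicate 3.

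Atp6v1g3, the gene of a G subunit of the stalk that is rich in kidney, was at 74.3, 79.0, 81.0 and 77.4 CPM with vehicle and at 96.8, 92.1, 65.1 and 112 CPM with BRD4780 (chromosome 1, 138273738 to 138289462, plus strand). Its coefficient of variation was 3.62% in the vehicle group, against 21.2% in the treated group. Here replicate 3 was the lowest of all 8 libraries while the other treated libraries were the highest. The log2 fold change was 0.22 ± 0.14 (SE, edgeR adjusted p = 0.33), 0.36 with an adjusted p of 0.0112 without that library, and 0.12 with an adjusted p of 0.63 without BRD4780 replicate 4.

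Atp6v0a4 (chromosome 6, 38048483 to 38124586, minus strand) encodes the a4 subunit of the membrane sector, also a distal renal tubular acidosis gene. It was at 229, 225, 212 and 232 CPM with vehicle. With BRD4780 it was at 185, 209, 262 and 223 CPM, which spread to both sides of the vehicle range (log2 fold change -0.03 ± 0.10 SE, edgeR adjusted p = 0.89). Its exons overlap those of Tmem213 on the opposite strand and of D630045J12Rik on the same strand. Each of these neighbours had a log2 fold change of -0.07. Whether reads were shared between them was not tested.

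Atp6v0d2, the d2 subunit gene of the membrane sector, is also known from osteoclasts (chromosome 4, 19876841 to 19922605, minus strand). Its vehicle libraries spanned 27.6 to 33.4 CPM and its treated libraries 23.3 to 33.3 CPM, with replicate 3 the lowest of all 8 (log2 fold change -0.07 ± 0.11 SE, edgeR adjusted p = 0.74). Atp6v1c2, the C2 subunit gene (chromosome 12, 17284721 to 17329359, minus strand), spanned 23.0 to 27.8 CPM in vehicle libraries. With BRD4780 it was at 23.3, 25.0 and 24.5 CPM in replicates 1 to 3 and at 36.6 CPM in replicate 4, the shallowest library (log2 fold change 0.04 ± 0.14 SE, edgeR adjusted p = 0.89). An antisense neighbour with overlapping exons, Pdia6, had a log2 fold change of -0.46 ± 0.12 (SE).

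Each of these subunits has a widely expressed paralogue, and the ratio of the 2 within a library sets the epithelial form against the common form, in counts not divided by length. None of the 5 ratios passed the threshold. Atp6v1b1 made up 0.122 counts per count of Atp6v1b2 with vehicle and 0.123 with BRD4780 (geometric means of 4 libraries; exact permutation p = 0.91). The ratio of Atp6v0d2 to Atp6v0d1 was 0.187 and 0.186 (exact permutation p = 1.0), that of Atp6v1g3 to Atp6v1g1 0.252 and 0.256 (exact permutation p = 0.89), and that of Atp6v1c2 to Atp6v1c1 0.270 and 0.291 (exact permutation p = 0.66). There were 3.28 counts of Atp6v0a4 per count of Atp6v0a1 in vehicle and 2.85 in treated kidneys (log2 difference -0.20, exact permutation p = 0.20). That difference was -0.31 without BRD4780 replicate 3 (exact permutation p = 0.0286, adjusted p = 0.154) and -0.098 without replicate 1. In the vehicle group these log2 ratios had SDs between 0.07 and 0.21, and in the treated group between 0.19 and 0.39.

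Of 18 widely expressed pump subunits and accessory proteins edgeR called 0, and 6 had an unadjusted p under 0.05, against 24.6% of all genes. Log2 fold changes were positive in 7 and negative in 11 (median -0.06). Without BRD4780 replicate 3 the median was -0.10 and 5 were called, against 23.5% of all genes. Among those called Tcirg1 was higher and Atp6v1a, Atp6v1b2, Atp6v1d and Atp6v0e2 lower. Tcirg1, the a3 subunit gene known from osteoclasts, had the smallest p, at 27.6 ± 3.2 and 36.1 ± 6.7 CPM (SD, n = 4 per group; edgeR adjusted p = 0.12). The catalytic A subunit gene Atp6v1a was at 444 ± 32 and 361 ± 55 CPM (SD, n = 4 per group; edgeR adjusted p = 0.15), and Atp6v0e2 at 88.2 ± 4.7 and 69.3 ± 15.7 CPM (SD, n = 4 per group; edgeR adjusted p = 0.16). In Atp6v1a, BRD4780 replicate 3 at 438 CPM lay inside the vehicle range of 407 to 484 CPM, as it did in Atp6v0e2.

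Foxi1 and Rhcg, which were not assigned to either type alone, had overlapping groups. Foxi1 (chromosome 11, 34204338 to 34208089, minus strand) was at 36.0, 40.5, 46.6 and 47.6 CPM with vehicle and at 40.9, 49.9, 38.05 and 30.0 CPM with BRD4780. The highest and the lowest library were both treated (log2 fold change -0.09 ± 0.15 SE, edgeR adjusted p = 0.75). Rhcg, the ammonia channel gene (chromosome 7, 79593363 to 79617657, minus strand), was at 87.4, 82.9, 86.3 and 90.7 CPM with vehicle and at 108.6, 92.3, 88.9 and 89.5 CPM with BRD4780. Treated replicates 1 and 2 exceeded all vehicle libraries (log2 fold change 0.13 ± 0.08 SE, edgeR adjusted p = 0.35), and without replicate 1 the log2 fold change was 0.056. In the list of 16 genes of either type, 7 of them among the 10 described, 0 were called. An unadjusted p under 0.05 was found for 3, against 24.6% of all genes. Without BRD4780 replicate 3 edgeR called 4, against 23.5% of all genes, with Atp6v1g3 and Tfcp2l1 higher and Atp6v1b1 and Car12 lower. Of the 3 with all libraries the carbonic anhydrase gene Car15 had the smallest p (log2 fold change -0.29 ± 0.11 SE, edgeR adjusted p = 0.16), followed by Tfcp2l1, a transcription factor gene also active in principal cells (0.21 ± 0.09 SE, edgeR adjusted p = 0.18).

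FOXI1 is a forkhead factor, so promoters of 7 of the 10 genes were searched for the forkhead core TGTTTA on both strands. Each was a RefSeq (GRCm38.p6) window of 300 bases, from 250 before to 50 after the start. No window was used for Slc4a1, Slc4a9 or Atp6v0d2, which were therefore not searched. The letters were found in 1 of them, that of Atp6v1b1, beginning 98 bases before the start, and in 13.4% of all 32851 promoter windows of this length. The stretch from 200 to 51 bases before the start is shown for Atp6v1b1 (chr6:83742817-83742966, plus strand), with the match in capitals, and for Slc26a4 (chr12:31560035-31560184, minus strand), the type B gene with the clearest separation, which has no match in its window.
Atp6v1b1: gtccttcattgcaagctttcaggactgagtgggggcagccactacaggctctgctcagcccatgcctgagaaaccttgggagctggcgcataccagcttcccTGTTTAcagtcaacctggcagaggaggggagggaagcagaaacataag
Slc26a4: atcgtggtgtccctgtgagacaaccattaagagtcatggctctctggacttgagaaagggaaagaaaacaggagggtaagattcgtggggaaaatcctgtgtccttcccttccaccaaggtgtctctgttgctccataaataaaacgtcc
A match of letters is a description and not a binding site, and other forkhead motifs were not searched.

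To compare levels between genes, CPM was divided by the length of all annotated exons in kilobases (GENCODE M21). In vehicle kidneys the highest level per length was that of Atp6v0a4 at 45.2 ± 1.8 CPM per kb, followed by Atp6v1g3 at 41.3 ± 1.5 and Rhcg at 38.9 ± 1.4 (SD, n = 4). The ranges of neighbours in this trio overlapped on this scale. With the longest transcript in place of all exons Atp6v0a4 was at 67.9 ± 2.8 CPM per kb, clear of Rhcg at 41.5 ± 1.5 and Atp6v1g3 at 41.3 ± 1.5 (SD, n = 4). Foxi1 at 18.1 ± 2.3 and Slc26a4 at 16.1 ± 2.0 CPM per kb came next, with overlapping ranges of 15.3 to 20.2 and 13.5 to 18.4. Below them by mean came Atp6v1c2 (12.02 ± 0.98), Atp6v0d2 (11.3 ± 0.9), Slc4a9 (10.95 ± 2.57), Atp6v1b1 (10.6 ± 0.8) and Slc4a1 (8.77 ± 1.29 CPM per kb), each overlapping the next. Slc4a9 reached 14.6 CPM per kb in its highest vehicle library, inside the range of Slc26a4. With the longest transcript Atp6v1b1 was at 23.3 CPM per kb, above Foxi1. In treated kidneys Slc26a4 stood at 23.1 ± 3.9 and Slc4a1 at 5.83 ± 1.23 CPM per kb (SD, n = 4).

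Markers of neighbouring cells were measured in the same libraries, and their part in the exchanger values was not tested. Intercalated cells share the connecting tubule with cells that take up calcium and magnesium. Of 8 genes of the distal convoluted and connecting tubule 7 had positive log2 fold changes (median 0.30). The 1 called, against 2.92% of all genes, was the magnesium channel gene Trpm6 (18.5 ± 2.5 and 34.1 ± 10.1 CPM, SD, n = 4 per group, edgeR adjusted p = 0.0452). Calb1, the calcium-binding protein calbindin, was at 231 ± 41 and 416 ± 128 CPM (SD, n = 4 per group; edgeR adjusted p = 0.0507), and Wnk1 at 277 ± 34 and 344 ± 48 CPM (SD, n = 4 per group; edgeR adjusted p = 0.15). All of these 3 were called without BRD4780 replicate 3, each higher, against 23.5% of all genes. The summed level of that list was 1387 to 1901 CPM in the vehicle group and 1655 to 2482 CPM in the treated group.

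Principal cells, the neighbours in the collecting duct, had 11 of 12 genes with negative log2 fold changes (median -0.22) and 0 called. An unadjusted p under 0.05 was found for 3, against 24.6% of all genes. The median was -0.14 without BRD4780 replicate 3, again with 0 called. The smallest p-values were those of Fxyd4, a regulator of the sodium pump, at 71.0 ± 17.5 and 44.3 ± 10.3 CPM (SD, n = 4 per group; edgeR adjusted p = 0.0923), and of the water channel gene Aqp3 at 161 ± 3 and 125 ± 23 CPM (SD, n = 4 per group; edgeR adjusted p = 0.0925). Hsd11b2, which inactivates glucocorticoid, was at 175 ± 12 and 153 ± 5 CPM (SD, n = 4 per group; edgeR adjusted p = 0.14). The summed level of the principal cell genes spanned 852 to 1335 CPM in the vehicle group and 601 to 1167 CPM in the treated group, which overlapped. The lowest libraries of the groups were vehicle replicate 4 and BRD4780 replicate 3. Whether this difference between libraries bears on the exchanger values was not tested. Of 10 tested genes of macrophages and osteoclasts, cells that also make Atp6v0d2, 0 were called (median -0.04). The median was -0.27 without BRD4780 replicate 3, and 1 was called, Csf1r, lower, against 23.5% of all genes. The smallest p-values were those of Csf1r at 105 ± 13 and 77.5 ± 14.9 CPM, Mrc1 at 1.67 ± 0.21 and 2.17 ± 0.39 CPM, and Lyz2 at 35.2 ± 27.9 and 23.7 ± 5.4 CPM (SD, n = 4 per group). Ocstamp, a marker of osteoclasts, had 6 counts over all libraries. Their summed level was 210 to 343 CPM in the vehicle group and 190 to 264 CPM in the treated group.

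Genes with the profile most like Slc4a1 and Slc26a4 were sought among the other 13473 tested genes by Pearson correlation of log2 CPM over the 8 libraries, which ignores the size of the difference. These were picked as the highest of all genes, share libraries and treatment groups, and carry no test. Nearest to Slc4a1 were Cldn19, a claudin gene of the thick ascending limb (r = 0.99, rho = 0.98), Tmem207 (r = 0.98, rho = 0.98), Ap2b1 (r = 0.98, rho = 0.98), Ppp1r1a (r = 0.98, rho = 0.93) and the renin gene Ren1 (r = 0.96, rho = 0.93). Nearest to Slc26a4 were Mtmr1 (r = 0.97, rho = 0.98), Ptp4a1 (r = 0.97, rho = 0.95), Amigo3 (r = 0.96, rho = 1.0), Mcl1 (r = 0.95, rho = 1.0) and Tmem39a (r = 0.95, rho = 0.98). The size of the difference varied among them. Ap2b1 was at 122.4 and 117.8 CPM in the vehicle and BRD4780 groups, Cldn19 at 54.3 and 29.3 CPM, and Amigo3 at 1.71 and 3.66 CPM. None of the 10 nearest genes belonged to the lists of intercalated cell genes.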

How the data were processed

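The deposited values are expected counts, that is, estimated read counts per gene that the authors did not normalize. STAR 2.5.2b, RSEM 1.3.0 and Picard appear in the submitters' processing notes, as do builds mm10 and hg19, without roles. For annotation, filters and strand setting: not given in the sources used here. Each library stands for 1 mouse, and 1 column of per-sample values that matched no sample was not used. Repeated symbols (343, identical lines) were collapsed. Comparing libraries by chi-square over genes gave at least 7.60 per degree of freedom, so no 2 were alike within sampling noise.

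Expected counts were rounded, filtered with filterByExpr (minimum count 10), scaled by TMM and tested with edgeR 4.0.16 (quasi-likelihood F-test, R 4.3.3), with Benjamini-Hochberg adjustment over 13474 genes and a threshold of 0.05. The test was also run on simulated counts in which no library stood apart, so that run does not bear on BRD4780 replicate 3. SE is the absolute log2 fold change over the square root of F. Alternatives were the DESeq2 1.42.0 Wald test and size factors, no filter, a block for the number in the titles, each library left out, exact permutation and, chosen after seeing the data, plain totals and the list counts without BRD4780 replicate 3. The members, the gene lists, the ratios and the rule for named genes (all 10 members, called list genes and otherwise the 3 smallest p per list, the paralogues in the ratios, list genes at 0, the nearest 5 genes) were chosen with earlier results of these data known. Of 92 listed genes 87 were in the table. Spink8, Hmx2, Gata1, Ocstamp, the list genes called without BRD4780 replicate 3 and the genes overlapping a member fall outside that rule and were named after their values were seen.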

Additional observations from a re-analysis of the deposited data

Results flagged for a closer look

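In 38 groups of 4 libraries, 5 had a library far from the other 3, where chance gives about 1 in 20. BRD4780 replicate 4, the shallowest library, was high in Atp6v1c2 at 36.6 CPM. BRD4780 replicate 3 was low in the log2 ratio of Atp6v0d2 to Atp6v0d1 at -2.84. Vehicle replicate 2 was low in the log2 ratio of Atp6v1b1 to Atp6v1b2 at -3.17. Vehicle replicate 1 was high in that of Atp6v0a4 to Atp6v0a1 at 1.82, and vehicle replicate 4 in that of Atp6v1g3 to Atp6v1g1 at -1.89. None of the exchanger genes, nor the ratios among them, had such a library.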

How the results depend on the processing

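The count of the 10 genes called was 0 in the fit over all libraries, 3 by the DESeq2 Wald test and between 0 and 5 when 1 library was left out, with 5 only without BRD4780 replicate 3. Over all genes the count of 394 became 1355 by DESeq2, 147 with a block for the number shared by some titles, and between 31 (without vehicle replicate 2) and 3184 (without BRD4780 replicate 3) when 1 library was left out. Some of these title numbers occur in both treatment groups, and the labels do not say what they mean. The permutation tests did not take the title numbers into account. The deposition-order replicate numbers, which are a different numbering, pair no mice. Each of the 8 libraries moved the count over all genes by more than 1.5 times when left out. Slc4a1 stayed negative and Slc26a4, Slc4a9, Atp6v1g3 and Rhcg positive in all 14 alternatives each, Atp6v1b1 negative likewise. The difference in the Slc4a1 to Slc26a4 ratio kept its sign under both pseudocounts and without each library. Small values changed sign. With the block, Atp6v0d2 was at 0.066, Atp6v1c2 at -0.18 and Foxi1 at 0.041 (log2 fold change). With plain totals, Atp6v0a4 was at 0.035 and Atp6v0d2 at 0.0052. With 1 library left out, Atp6v0a4 ranged from -0.13 to 0.045, Atp6v0d2 from -0.13 to 0.028, Atp6v1c2 from -0.11 to 0.11 and Foxi1 from -0.22 to 0.011. The log2 ratio differences ranged from -0.063 to 0.085 for Atp6v1b1 to Atp6v1b2, from -0.31 to -0.098 for Atp6v0a4 to Atp6v0a1, from -0.10 to 0.13 for Atp6v0d2 to Atp6v0d1, from -0.057 to 0.15 for Atp6v1g3 to Atp6v1g1 and from -0.040 to 0.26 for Atp6v1c2 to Atp6v1c1. The causes were not tested.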
